A study of Mus musculus with 28 samples.

Results

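The Ly6 family genes Ly6a, Ly6c1, Ly6c2, Ly6d, Ly6e, Ly6g and Ly6k were followed through 28 libraries of 3 mouse cell lines. They were chosen by family name from the 55536 genes counted, and the family was selected on the rise of Ly6g in EO771 kept with C2C12, so that the values of that contrast are given as a description, with no test. The identifiers of all 7 genes were listed for each library, some of them with a count of 0. EO771 is a breast cancer line, C2C12 a muscle line kept here as myotubes, and MLg a line of lung fibroblasts. All carried the wild-type genotype and were maintained in DMEM with 10% fetal bovine serum and penicillin-streptomycin at 37 °C. The groups were EO771 with C2C12, EO771 with MLg, EO771 alone, C2C12 with EO771, C2C12 alone, MLg with EO771 and MLg alone, with 4 libraries in each. Each line is 1 established line, and the labels do not say whether the libraries of a group came from separate cultures, so each p-value rests on library-to-library spread that could be technical.

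Ly6 proteins are small, cysteine-rich proteins that fold into a domain of finger-like loops and, for most members, are held on the outer face of the cell membrane by a glycosylphosphatidylinositol (GPI) anchor. Several are used as surface markers of blood cells, and some are induced by interferons. Ly6g is known as the marker of mouse neutrophils, and Ly6c1 and Ly6c2 encode the Ly6C antigens of monocytes and other cells. Ly6a encodes the stem cell antigen of mouse blood progenitors, which is also found on progenitors of muscle.

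The 7 genes lie in 1 cluster on mouse chromosome 15 (GRCm38). Ly6d lies at chr15:74762056-74763620, Ly6k at chr15:74796874-74799986, Ly6a at chr15:74994877-74998031, Ly6c1 at chr15:75044018-75048830 and Ly6c2 at chr15:75108158-75111970, all on the minus strand. Ly6e at chr15:74955051-74959905 and Ly6g at chr15:75155240-75159126 are on the plus strand. Ly6k overlaps the antisense gene Gm17189, which had 0 counts in all 28 libraries, and no other member overlaps an annotated gene.

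Promoter windows from 250 bases before to 50 bases after a RefSeq start (GRCm38.p6) were available for 3 of the 7 genes, Ly6g, Ly6c1 and Ly6c2. They are shown because Ly6g, on which the selection rests, and Ly6c1 and Ly6c2 stood higher in EO771 with C2C12 than in EO771 alone, and because the windows are alike. The capitals mark each run of at least 12 bases that all 3 windows hold, and the window of the most upstream start of each gene is printed 5′ to 3′ on the strand of the gene, at chr15:75155011-75155310 for Ly6g, chr15:75048788-75049087 for Ly6c1 and chr15:75111922-75112221 for Ly6c2.
Ly6g: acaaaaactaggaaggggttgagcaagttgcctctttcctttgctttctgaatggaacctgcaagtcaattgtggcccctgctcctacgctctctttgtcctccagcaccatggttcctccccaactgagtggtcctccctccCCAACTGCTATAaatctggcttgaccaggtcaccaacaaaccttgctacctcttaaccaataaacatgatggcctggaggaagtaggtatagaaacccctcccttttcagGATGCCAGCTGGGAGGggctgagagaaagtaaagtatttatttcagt
Ly6c1: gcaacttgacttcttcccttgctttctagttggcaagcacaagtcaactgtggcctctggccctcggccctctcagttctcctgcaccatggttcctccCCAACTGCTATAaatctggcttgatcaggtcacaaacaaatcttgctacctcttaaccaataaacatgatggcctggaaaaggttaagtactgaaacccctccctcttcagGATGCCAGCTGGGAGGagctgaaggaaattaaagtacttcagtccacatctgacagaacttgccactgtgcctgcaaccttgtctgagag
Ly6c2: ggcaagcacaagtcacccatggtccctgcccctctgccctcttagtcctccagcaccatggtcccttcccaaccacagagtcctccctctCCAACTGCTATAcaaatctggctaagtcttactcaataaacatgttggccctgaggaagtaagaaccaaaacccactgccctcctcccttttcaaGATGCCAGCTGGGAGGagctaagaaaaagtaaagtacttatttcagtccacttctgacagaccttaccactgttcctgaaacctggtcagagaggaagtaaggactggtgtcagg
In a global alignment the Ly6g and Ly6c1 windows were identical at 62.5% of aligned columns, those of Ly6c1 and Ly6c2 at 62.3%, and those of Ly6g and Ly6c2 at 48.8%. The shared runs have 12 and 16 bases. The longer run lies before the annotated start in Ly6c1 and Ly6c2 but just after it in Ly6g, where the window of the second annotated start, at position 75155329, places it before the start as well. Both strands of the windows were searched for GAAANNGAA, the core of the interferon-stimulated response element, for TTCNNNGAA, the gamma-activated site, and for ACGTG and GCGTG, the core of the hypoxia response element. Of 32851 RefSeq promoter windows of the same length, 8.56% hold the first, 8.30% the second and 43.8% the third in either form. None of the 6 windows listed for the 3 genes holds any of these letters.

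The counts of related members can share reads. Of all 50-base words in the GENCODE transcripts of Ly6c1, 32.8% also occur in transcripts of other genes, mostly of Ly6c2, with which it shares 21.5%, and of Ly6a, with which it shares 11.1%. The share was 19.0% for Ly6a and 14.4% for Ly6c2, but 0.448% for Ly6g and 0% for Ly6d, Ly6e and Ly6k. No source used here says how reads that match several genes were counted, so the separate values of Ly6a, Ly6c1 and Ly6c2 are uncertain in a way that those of Ly6g and Ly6e are not.

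Total counts ran from 27.6 to 96.5 M per library. An approximate upper limit of 3 counts, not a hard bound, was taken for a count of 0. It stands for 0.109 counts per M total counts (CPM) at the lowest total and 0.0311 CPM at the highest. These limits take in counting error alone. All counts were even numbers in 5 co-cultured libraries, namely R3-1, R5-1 and R6-1 of EO771 with C2C12 and R5-1 and R6-1 of MLg with EO771, as the labels name them; results that rest on them are given with and without them. The 7 muscle markers summed to 526 to 2224 CPM in C2C12 with EO771 and 286 to 3256 CPM in C2C12 alone, against 3.12 to 9.53 CPM in the MLg libraries. The 7 fibroblast markers summed to 21344 to 29502 CPM over the MLg libraries, but to 24670 to 32778 CPM over the C2C12 libraries, so they do not set MLg apart from C2C12. The 5 epithelial markers summed to 72.5 to 258 CPM over the EO771 libraries; nearly all of this was Krt8, and Krt18, Epcam, Cdh1 and Krt7 averaged under 1 CPM in each EO771 group. RNA of the partner line was present after co-culture: transcripts of 356 C2C12-specific genes stood in EO771 with C2C12 at 1.48% ± 0.616 of their level in C2C12 with EO771, and transcripts of 324 MLg-specific genes in EO771 with MLg at 1.59% ± 0.399 of their level in MLg with EO771. EO771-specific transcripts stood at 4.44% ± 0.992 (54 genes) in C2C12 with EO771 and at 8.53% ± 3.15 (63 genes) in MLg with EO771 (SD, n = 4 each). The 7 muscle markers gave a higher share in EO771 with C2C12, 8.53% ± 5.43, against 0.455% in EO771 alone. In these bulk libraries, a change in the share of cells that express a gene and a change in RNA per cell cannot be told apart.

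Ly6g was nearly silent in every line grown alone and was highest in the co-cultured cancer cells. Its level was 5.57, 7.28, 6.15 and 11.4 CPM in EO771 with C2C12, 4.10, 4.85, 4.74 and 4.63 CPM in EO771 with MLg, and 0.352, 0.513, 0.571 and 0.646 CPM in EO771 alone. Every co-cultured EO771 library lay above every EO771 library grown alone, and every library with C2C12 above every library with MLg. The highest value was that of the library with C2C12 labelled R3-1, one of the libraries with even counts; the one library of that group with odd counts, R5-2, had 7.28 CPM. The fitted log2 difference was 3.78 ± 0.27 (SE) for EO771 with C2C12 over EO771 alone, or 13.7-fold. It was 3.14 ± 0.27 for EO771 with MLg over EO771 alone, or 8.80-fold, and 0.64 ± 0.22 for EO771 with C2C12 over EO771 with MLg. Without the libraries of even counts, which leaves only R5-2 in EO771 with C2C12, the first of these differences was 3.74 and the last 0.61. No test is attached to these differences, since the family was selected on the rise of this gene in EO771, and the first 2 share the same EO771 alone libraries.

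In the host lines Ly6g stayed at the edge of detection. It had 0.230, 0.274, 0.238 and 0.113 CPM in C2C12 with EO771, against 0.0729, 0, 0 and 0.116 CPM in C2C12 alone. It had 0.414, 0.278, 0.104 and 0.281 CPM in MLg with EO771, against 0, 0, 0 and 0.0324 CPM in MLg alone. The MLg groups did not overlap and the C2C12 groups overlapped narrowly, but the gene passed the filter on low counts in neither host comparison. Some alternative fits took it in, with no filter, with libraries left out or with all 28 libraries together. They share most of their libraries. Where a filter applied, the gene entered on libraries in which it is high. Calls in those fits are therefore not used as support. The pooled counts were 48 in MLg with EO771 and 2 in MLg alone, a ratio of pooled CPM of 35.7 with an exact 95% counting interval of 9.36 to 303.2. That interval takes in counting error alone, not the spread between libraries. Of the 48 counts, the even-count libraries R5-1 and R6-1 held 14 and 16, and R6-2 and R7-1 held 4 and 14. RNA carried over from co-cultured EO771, at the measured share, would with the level of the host grown alone give 0.398 CPM in MLg with EO771, where 0.269 CPM was observed, and 0.385 CPM in C2C12 with EO771, where 0.214 CPM was observed.

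The converse carry-over is small for Ly6g. The level of EO771 alone plus C2C12 RNA would come to 0.524 CPM at the share of the C2C12-specific genes and 0.539 CPM at the share of the muscle markers, against an observed mean of 7.60 ± 2.64 CPM (SD, n = 4) in EO771 with C2C12. For EO771 with MLg the sum was 0.525 CPM, against an observed 4.58 ± 0.333 CPM (SD, n = 4). The summed level of other markers of granulocytes and myeloid cells overlapped between the 3 EO771 groups. Of 16 such genes, 11 had a mean under 0.1 CPM in EO771 with C2C12, 10 in EO771 with MLg and 9 in EO771 alone. S100a9, Ptprc, Itgam, Csf3r, Elane, Ltf, Ngp, Retnlg and Cxcr2, which define neutrophils or leukocytes, were at or near 0, with none above 0.228 CPM in any EO771 library. Adgre1, a macrophage marker, was at 0 in every EO771 library but 1, and Mpo, of neutrophil granules, reached no more than 0.485 CPM. Lcn2 was expressed at means of 26.6 CPM in EO771 with C2C12, 14.5 CPM in EO771 with MLg and 28.1 CPM in EO771 alone, and Cd68 at 7.02, 12.3 and 11.2 CPM in the same groups. Lyz2 averaged 1.13, 0.949 and 1.41 CPM there, and Camp 0.0900, 0.150 and 0.168 CPM. Summed, the 16 genes ran from 38.4 to 57.1 CPM in EO771 with C2C12, 20.4 to 53.0 CPM in EO771 with MLg and 43.1 to 59.7 CPM in EO771 alone. Within the list, S100a8, a calcium-binding protein abundant in neutrophils, averaged 14.1 CPM in EO771 with C2C12, 4.01 CPM in EO771 with MLg and 5.84 CPM in EO771 alone.

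**Figure D1:**
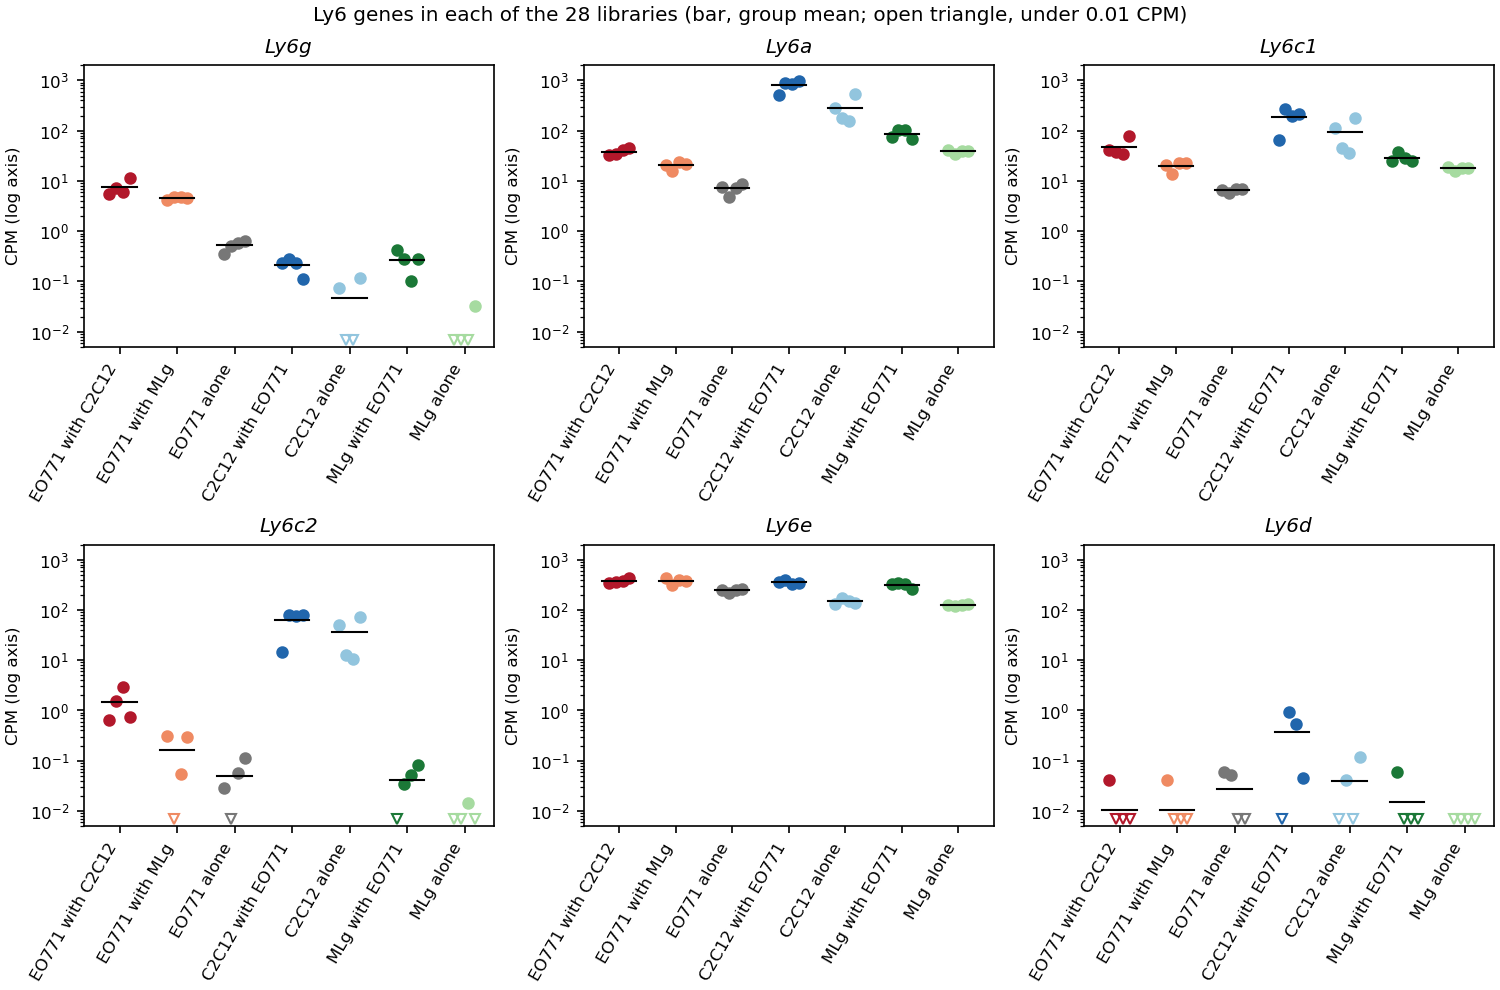
Level of 6 Ly6 genes in each of the 28 libraries, as CPM on a log axis; points are libraries, bars are group means, and open triangles stand for values under 0.01 CPM. Ly6g is highest in the EO771 libraries kept with C2C12 (5.57 to 11.4 CPM) or with MLg (4.10 to 4.85 CPM), whereas Ly6a, Ly6c1 and Ly6c2 are highest in C2C12; Ly6k, at 0 in 27 of 28 libraries, is not drawn.

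The genes with the pattern most like that of Ly6g, by the Pearson correlation of log2(CPM + 1) over the 28 libraries among 15272 genes with a group mean of at least 1 CPM, were Gm4610 (0.98), Mrc1 (0.98) and Ccdc180 (0.97). Mrc1 encodes the mannose receptor of macrophages; it averaged 2.31 CPM in EO771 with C2C12, 1.36 CPM in EO771 with MLg and 0.327 CPM in EO771 alone. Within the family the correlation with Ly6g was 0.63 for Ly6e, -0.07 for Ly6c1, -0.29 for Ly6c2 and -0.39 for Ly6a. The 28 points share only 3 lines and 7 culture conditions, so these values mostly describe which groups were high.

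Ly6a and Ly6c1 were genes of the myotubes first, and both stood higher in co-cultured EO771 than in EO771 alone. Ly6a was at 32.9, 33.9, 41.2 and 45.8 CPM in EO771 with C2C12, 20.6, 15.6, 23.3 and 21.6 CPM in EO771 with MLg, and 7.42, 4.85, 7.36 and 8.87 CPM in EO771 alone. The 3 groups did not overlap. In EO771 with MLg over EO771 alone Ly6a rose by 1.52 ± 0.16 on the log2 scale (2.86-fold; adjusted p = 2.0e-06), and the observed mean of 20.3 CPM compares with 8.50 CPM for EO771 alone plus the measured share of MLg RNA. Ly6c1 was at 40.5, 37.2, 35.0 and 77.4 CPM in EO771 with C2C12, 20.6, 13.6, 22.5 and 23.0 CPM in EO771 with MLg, and 6.69, 5.72, 6.82 and 6.99 CPM in EO771 alone. Here too the 3 groups did not overlap, and the library with C2C12 labelled R3-1 stood above the other 3. Ly6c1 rose by 1.61 ± 0.22 in EO771 with MLg over EO771 alone (3.05-fold; adjusted p = 6.8e-05), where EO771 alone plus MLg RNA would give 7.02 CPM and 19.9 CPM was observed.

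In EO771 with MLg over EO771 alone, 3 testable members rose and 0 fell, with edgeR's quasi-likelihood test. Over all 15794 genes tested, 5.94% rose and 3.61% fell. The 3 were Ly6a, Ly6c1 and Ly6e, the last described below. Ly6c2 had 0.310, 0, 0.0545 and 0.294 CPM in EO771 with MLg, against 0.0293, 0, 0.0571 and 0.112 CPM in EO771 alone. These are 29 and 7 counts over 4 libraries each. Ly6c2 passed the low-count filter only through EO771 with C2C12, the group of the selecting contrast. Its fitted difference of 1.75 ± 0.93 is therefore given with no test.

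For EO771 with C2C12 the picture of Ly6a and Ly6c2 depends on how much myotube RNA is present. The fitted log2 differences over EO771 alone were 2.35 ± 0.17 for Ly6a, 2.78 ± 0.22 for Ly6c1 and 4.74 ± 0.84 for Ly6c2. Without the libraries of even counts, which leaves only R5-2 in EO771 with C2C12, they were 2.19, 2.45 and 4.84. Observed means were 38.4 CPM for Ly6a, 47.5 CPM for Ly6c1 and 1.48 CPM for Ly6c2. EO771 alone plus C2C12 RNA at the share of the C2C12-specific genes would give means of 19.0, 9.31 and 0.970 CPM for these 3 genes, below the observed means. Library by library Ly6a and Ly6c1 stood above that sum in all 4, but Ly6c2 was below it in R3-1 (0.757 CPM observed against 0.852 CPM) and level with it in R5-1 (0.633 CPM observed against 0.631 CPM). At the share of the muscle markers the sum would give means of 75.6, 22.4 and 5.35 CPM, above the observed mean of Ly6a and Ly6c2 and below that of Ly6c1. Single libraries departed from this for Ly6a in R3-1 (45.8 CPM observed against 41.1 CPM) and for Ly6c1 in R6-1 (35.0 CPM observed against 36.9 CPM). With C2C12 counts subtracted at the muscle share, an alternative chosen after seeing the data, the difference of Ly6a turned to -1.24. Which of the shares applies to the Ly6 transcripts was not tested.

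**Figure D2:**
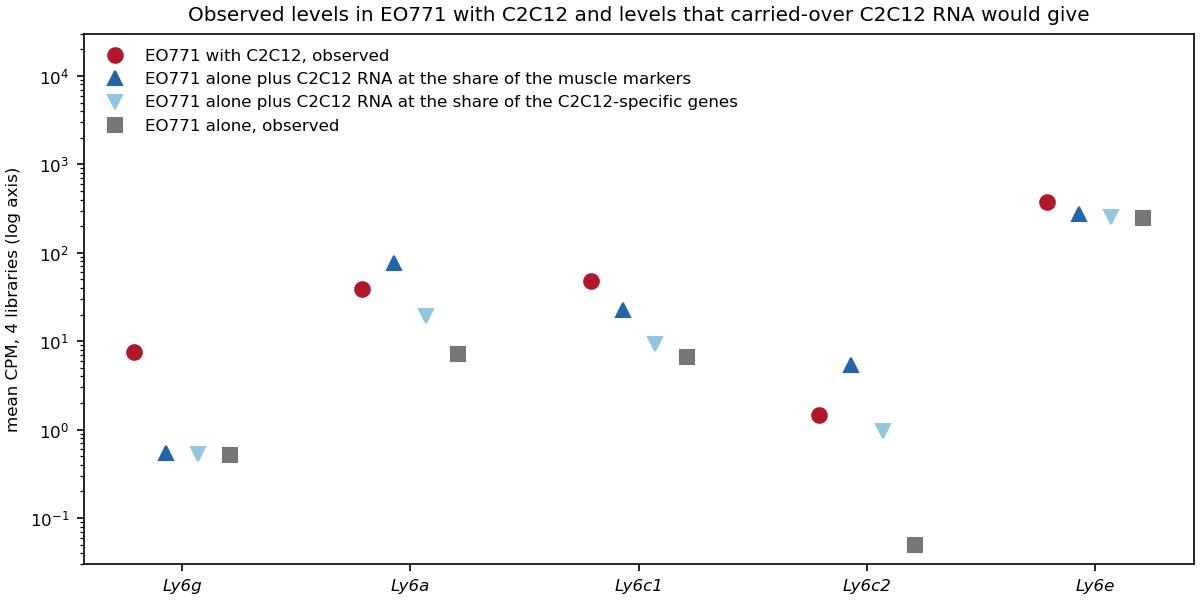
Mean CPM of 5 Ly6 genes in EO771 with C2C12 (4 libraries; circles), in EO771 alone plus the C2C12 RNA expected at either of 2 shares (triangles), and in EO771 alone (squares), on a log axis. The observed level of Ly6g, 7.60 CPM, lies above both sums (0.524 and 0.539 CPM), while that of Ly6a, 38.4 CPM, lies between them (19.0 and 75.6 CPM).

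In the myotubes themselves Ly6a was the most abundant member. It was at 509, 876, 852 and 971 CPM in C2C12 with EO771, against 279, 176, 155 and 533 CPM in C2C12 alone. Ly6c1 was at 65.5, 272, 194 and 211 CPM in C2C12 with EO771, against 112, 45.3, 36.3 and 181 CPM in C2C12 alone. Ly6c2 was at 14.3, 80.8, 75.5 and 77.7 CPM in C2C12 with EO771, against 50.5, 12.9, 10.5 and 71.4 CPM in C2C12 alone. The groups overlapped for all 3 genes. The main fit has no block for the R number of the labels. In it the log2 differences of 1.45 ± 0.38 for Ly6a, 0.95 ± 0.59 for Ly6c1 and 0.74 ± 0.74 for Ly6c2 did not pass the test (adjusted p = 0.12, 0.68 and 0.83). Of the 4 members in this fit only Ly6e was called; over all 16625 genes tested, 2.63% rose and 0.0962% fell. Ly6a passed the test without the library of C2C12 alone labelled R5-1, where its difference was 1.91 (adjusted p = 0.0038), with DESeq2 (adjusted p = 0.00072), in a fit blocked by R number (1.13; adjusted p = 0.014) and in 1 fit of all 28 libraries (1.44; adjusted p = 0.0005).

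The spread of these 3 genes followed the R number in the labels, whose meaning is not stated. In both C2C12 groups the libraries labelled R3 were the lowest for Ly6a, Ly6c1 and Ly6c2. Within R3, Ly6a was 3.07-fold higher in C2C12 with EO771 (509 CPM, 1 library) than in C2C12 alone (166 CPM, 2 libraries). Within R5 it was 1.62-fold higher, at 864 CPM (2 libraries) against 533 CPM (1 library). For Ly6c1 the ratio was 1.60 within R3 and 1.29 within R5, and for Ly6c2 it was 1.23 and 1.09. R2 and R6 each hold libraries of 1 of the 2 groups, so they give no such ratio. Without the 3 R3 libraries, an alternative chosen after seeing the data, the log2 differences were 1.13 for Ly6a, 0.60 for Ly6c1 and 0.33 for Ly6c2, and none passed the test (adjusted p = 0.092, 0.41 and 0.62). The summed muscle markers varied in the same libraries, from 526 to 2224 CPM in C2C12 with EO771 and from 286 to 3256 CPM in C2C12 alone, and their part in these results was not tested.

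**Figure D3:**
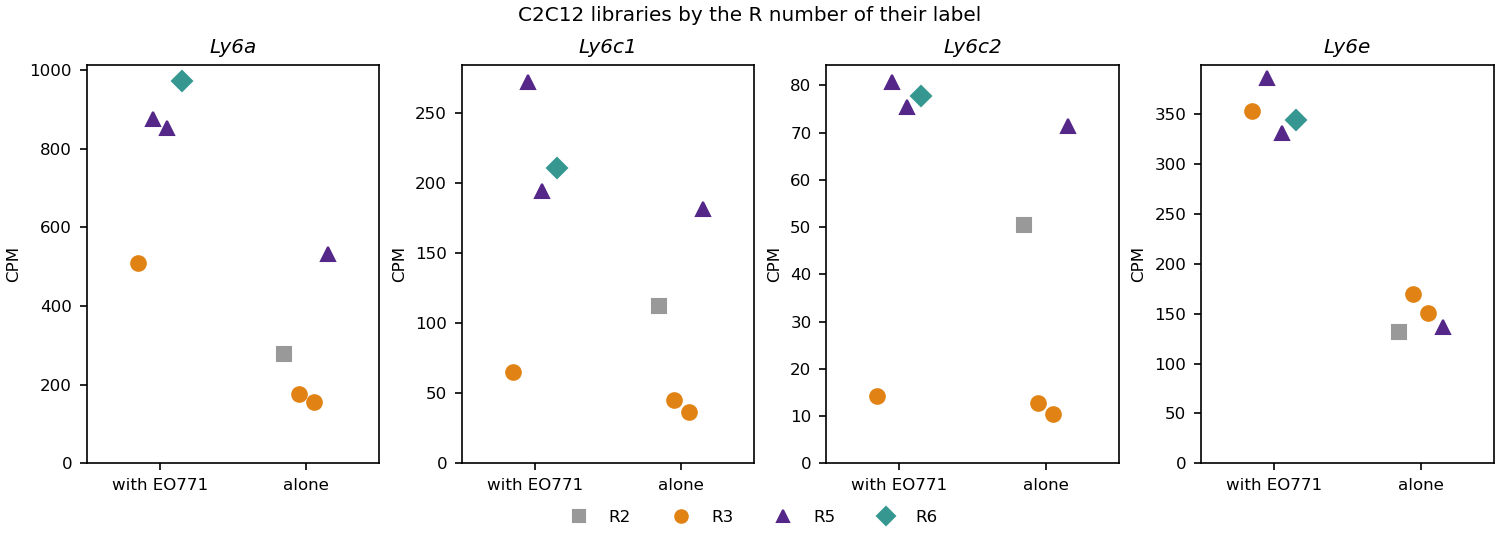
CPM of Ly6a, Ly6c1, Ly6c2 and Ly6e in the 4 libraries of C2C12 with EO771 and the 4 of C2C12 alone; symbols and colours give the R number of the label. The R3 libraries are lowest in both groups for Ly6a, Ly6c1 and Ly6c2, but not for Ly6e, whose groups are apart at 331 to 386 CPM with EO771 and 132 to 170 CPM alone.

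The fibroblasts expressed Ly6a and Ly6c1 at lower levels, and both rose with EO771. Ly6a was at 75.1, 101, 101 and 69.1 CPM in MLg with EO771, against 41.7, 34.1, 39.0 and 39.5 CPM in MLg alone, a log2 change of 1.19 ± 0.13 (adjusted p = 8.6e-05). Ly6c1 was at 25.2, 38.4, 27.9 and 24.4 CPM in MLg with EO771, against 19.0, 15.4, 18.0 and 18.4 CPM in MLg alone, a log2 change of 0.74 ± 0.15 (adjusted p = 0.0045). The groups did not overlap for either gene. At the measured share, MLg alone plus EO771 RNA would give 40.3 CPM of Ly6a and 19.4 CPM of Ly6c1. In a fit of all 28 libraries, which share 1 estimate of the spread, the change of Ly6c1 was 0.72 and did not pass the test (adjusted p = 0.32). Ly6c2 was at the floor in MLg, with 8 counts in MLg with EO771 and 1 count in MLg alone over 4 libraries each. All 3 members in the MLg fit, Ly6a, Ly6c1 and Ly6e, rose and 0 fell, against 9.96% and 4.90% of the 16823 genes tested. Without the libraries of even counts all 3 were still called, at 1.15, 0.56 and 1.24 (adjusted p = 0.0023, 0.017 and 2.3e-05).

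Ly6e, an interferon-inducible member that in mouse is also known as a receptor of a placental syncytin, was at 122 CPM or more in every library, and it rose in both hosts and in EO771 with MLg. It was at 352, 386, 331 and 344 CPM in C2C12 with EO771, against 132, 170, 150 and 137 CPM in C2C12 alone, a log2 change of 1.21 ± 0.13 (2.31-fold; adjusted p = 0.00052). It was at 327, 348, 326 and 265 CPM in MLg with EO771, against 126, 122, 124 and 129 CPM in MLg alone, a log2 change of 1.36 ± 0.09 (2.57-fold; adjusted p = 1.0e-06). Neither pair of groups overlapped. The level of the host alone plus carried-over EO771 RNA would be 164 CPM in C2C12 and 158 CPM in MLg, against observed means of 353 ± 23.4 CPM and 316 ± 35.9 CPM (SD, n = 4 each). In the cancer cells it was at 335, 358, 370 and 424 CPM in EO771 with C2C12, 434, 310, 396 and 375 CPM in EO771 with MLg, and 247, 218, 254 and 264 CPM in EO771 alone. Both co-cultured groups lay above EO771 alone and overlapped each other. Ly6e rose by 0.63 ± 0.11 in EO771 with MLg over EO771 alone (1.55-fold; adjusted p = 0.00034), and its fitted difference was 0.52 ± 0.11 in EO771 with C2C12 over EO771 alone and -0.11 ± 0.11 in EO771 with C2C12 over EO771 with MLg.

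**Figure D4:**
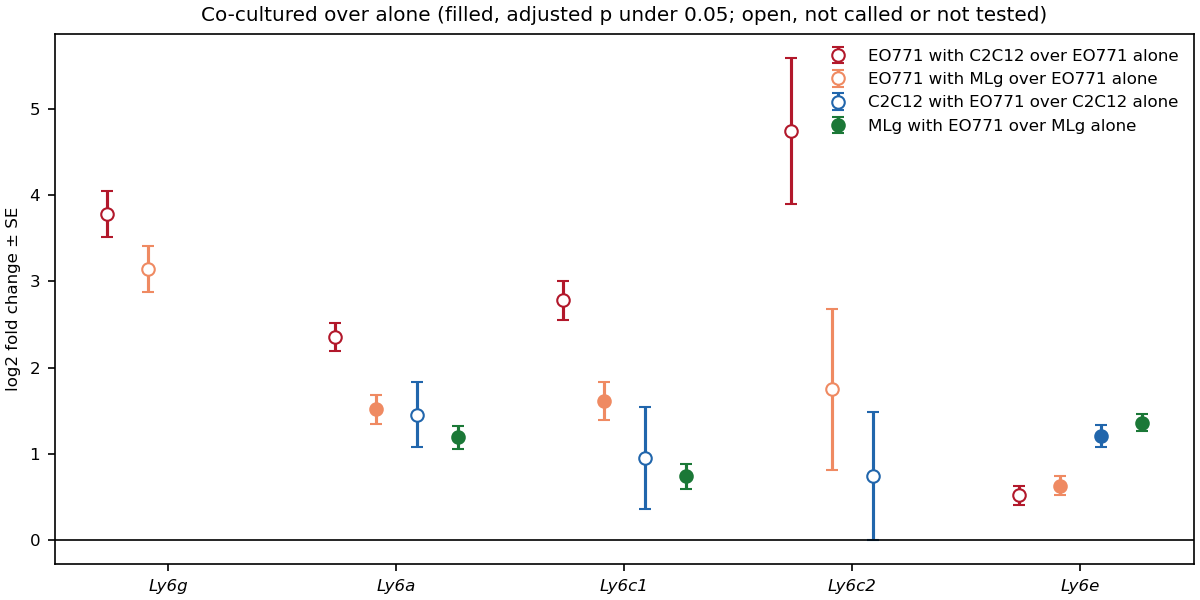
Log2 fold change with its standard error for 5 Ly6 genes, co-cultured over alone, in 4 comparisons; filled circles passed the test (adjusted p under 0.05), open ones did not or were not tested, as in EO771 with C2C12. Ly6e was called in both hosts (1.21 and 1.36). In EO771 with C2C12, the contrast on which the family was selected, Ly6g stands at 3.78 ± 0.27 and Ly6c2 at 4.74 ± 0.84.

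Whether the hosts differed in their response was tested as the C2C12 response minus the MLg response. With edgeR 0 of the 5 members in that fit were called, 0 had an unadjusted p under 0.05, and DESeq2 called 0. Ly6c2 entered that fit through the C2C12 libraries and Ly6g through the co-cultured ones, where they are higher. The count of 0 therefore rests on Ly6a, Ly6c1 and Ly6e. Over all 18647 genes tested 1.85% were called, and with so few members a count of 0 is near that share. The difference was -0.15 ± 0.17 for Ly6e (adjusted p = 0.77), 0.28 ± 0.41 for Ly6a (adjusted p = 0.85) and 0.23 ± 0.64 for Ly6c1 (adjusted p = 0.94), and -2.22 ± 2.98 for Ly6c2 and -2.59 ± 1.42 for Ly6g, both at the floor in MLg alone. On simulated counts with a known 2-fold difference this test recovered 24% of changed genes, and with a 4-fold difference 96%. These shares are over all changed genes and not for single members, whose SE ran from 0.17 for Ly6e to 2.98 for Ly6c2. A moderate difference between the hosts may go uncalled in the members of large SE. The share recovered at the SE of each member was not tested.

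The lines grown alone differed in which Ly6 genes they used. Here 4 members were called in C2C12 alone against MLg alone, and all were higher in C2C12; over all 18755 genes tested 61.8% were called. Ly6a was higher by 3.03 ± 0.35 (adjusted p = 1.6e-05), Ly6c1 by 2.54 ± 0.42 (adjusted p = 0.0003) and Ly6e by 0.40 ± 0.10 (adjusted p = 0.0029). Ly6c2 had 9689 counts in C2C12 alone and 1 count in MLg alone. It was in this fit only through C2C12 alone, where it is high, so its call is not used as support. The ratio of pooled CPM was 8863, with an exact 95% counting interval of 1590 to 350119 that leaves out the spread between libraries. EO771 alone had less Ly6a (-5.47 ± 0.40), Ly6c1 (-3.97 ± 0.46) and Ly6c2 (-9.60 ± 0.92) than C2C12 alone, and more Ly6e (0.58 ± 0.10). All 4 were called, where 78.1% of all genes were, but the call of Ly6c2 is again not used as support. Against MLg alone it had less Ly6a (-2.44 ± 0.35) and Ly6c1 (-1.43 ± 0.42) and more Ly6e (0.97 ± 0.10), all called, where 77.4% of all genes were. Ly6c2 was at 0.0497 CPM in EO771 alone and 0.0036 CPM in MLg alone, or 7 counts and 1 count. It was in this fit only through C2C12 alone, so these values are given with no test.

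Per kilobase of annotated exon, Ly6e was the leading member in EO771 and Ly6a in C2C12. In EO771 with C2C12 the mean level was 98.2 CPM per kb for Ly6e, 31.9 for Ly6a, 28.4 for Ly6c1, 8.07 for Ly6g and 0.540 for Ly6c2. In EO771 alone it was 64.9 CPM per kb for Ly6e, 5.91 for Ly6a, 3.91 for Ly6c1 and 0.552 for Ly6g. In C2C12 with EO771 it was 666 CPM per kb for Ly6a, 111 for Ly6c1, 93.4 for Ly6e and 22.7 for Ly6c2. In MLg with EO771 it was 83.6 CPM per kb for Ly6e, 71.8 for Ly6a and 17.3 for Ly6c1. So even at its highest mean level per kilobase Ly6g stood below Ly6e, Ly6a and Ly6c1 in the same libraries.

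By mean CPM, Ly6a was highest in C2C12 with EO771 (802 ± 202), then in C2C12 alone (286 ± 173), MLg with EO771 (86.6 ± 16.9), MLg alone (38.6 ± 3.20), EO771 with C2C12 (38.4 ± 6.15) and EO771 with MLg (20.3 ± 3.32), and lowest in EO771 alone (7.13 ± 1.67; SD, n = 4 each). Of these neighbours, the libraries of the C2C12 groups overlapped each other, as did those of MLg alone and EO771 with C2C12. For Ly6c1 the order was C2C12 with EO771, C2C12 alone, EO771 with C2C12, MLg with EO771, EO771 with MLg, MLg alone and EO771 alone, and 4 of the 6 neighbouring pairs overlapped. For Ly6e the 4 co-cultured groups came first and each overlapped the next, and then EO771 alone, C2C12 alone and MLg alone, none of which overlapped its neighbour. For Ly6g the 3 EO771 groups came first, and the libraries of EO771 alone overlapped those of MLg with EO771.

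Ly6d and Ly6k were close to absent. Ly6d, a marker of early B-lineage cells and of squamous epithelium, had 92 counts in all, of which 70 were in C2C12 with EO771 and 12 in C2C12 alone. It reached 0.932 CPM in R5-1 and 0.540 CPM in R5-2 of C2C12 with EO771, and 0.0451 CPM or less in the others of that group. It was at 0 in all 4 libraries of MLg alone, which allows 0.0486 CPM at the lowest total of that group. Ly6k, known from mouse testis and sperm, had 2 counts, both in 1 library of EO771 with MLg. Neither gene passed the filter on low counts in any comparison.

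Relatives outside the member list were mostly silent. Of 14 further genes of the chromosome 15 cluster, 10 had a mean under 0.1 CPM in EO771 with C2C12 and 8 in C2C12 with EO771. Lynx1, a modulator of nicotinic acetylcholine receptors, was the abundant one, at 104 ± 12.6 CPM in C2C12 with EO771 and 94.6 ± 12.4 CPM in C2C12 alone, and at 3.03 ± 0.537 CPM in EO771 with MLg and 1.24 ± 0.389 CPM in EO771 alone (SD, n = 4 each). It was the 1 of 2 cluster relatives in the fit that rose in EO771 with MLg over EO771 alone, by 1.30 ± 0.26 (adjusted p = 0.0021), and EO771 alone plus the measured share of MLg RNA would give 2.34 CPM. None of the 5 cluster relatives in the C2C12 fit and the 1 in the MLg fit was called with edgeR, 0 had an unadjusted p under 0.05, and DESeq2 called 0. Of 18 Ly6/uPAR genes from elsewhere in the genome, 2 of the 7 in the fit rose in EO771 with MLg, 1 of 5 in C2C12 with EO771 and 2 of 4 in MLg with EO771, each over the line alone, and 0 fell. Over all genes tested, 5.94%, 2.63% and 9.96% rose in the same order, and 3.61%, 0.0962% and 4.90% fell. With so few genes in a fit, a count of 0, here or among the cluster relatives, is near those shares. Plaur, the urokinase receptor, rose in all 3 tested comparisons: by 0.67 ± 0.16 in EO771 with MLg (adjusted p = 0.0099), 0.93 ± 0.16 in C2C12 with EO771 (adjusted p = 0.012) and 1.53 ± 0.20 in MLg with EO771 (adjusted p = 0.00027), each over the line alone. Partner RNA moves with the host values: the host alone plus carried-over EO771 RNA would give 18.6 CPM of Plaur in C2C12 and 25.5 CPM in MLg, against observed means of 22.5 CPM in C2C12 with EO771 and 25.6 CPM in MLg with EO771. Lypd5 was the other, higher by 0.74 ± 0.17 in EO771 with MLg (adjusted p = 0.0052); in MLg with EO771 it had 0.744 CPM, against 0 CPM in MLg alone, where carried-over EO771 RNA would give 0.570 CPM. Cd59a, an inhibitor of complement, was called in none of the 3, at -0.19 ± 0.17 in C2C12 and -0.30 ± 0.11 in MLg.

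Genes of interferon signalling and its targets, a list that contains no Ly6 gene, rose in the comparisons in which Ly6e rose. Of its 26 genes, all in each fit, 16 rose in EO771 with MLg, 18 in C2C12 with EO771 and 18 in MLg with EO771, each over the line alone, and 0 fell. Over all genes tested, 5.94%, 2.63% and 9.96% rose in the same order, and 3.61%, 0.0962% and 4.90% fell. The median log2 change of the list was 0.73 in EO771 with MLg, 2.24 in C2C12 with EO771 and 1.53 in MLg with EO771, against 0.00602, -0.00241 and -0.00487 over all genes tested. RNA of the partner moves with the list in EO771 with MLg: in 15 of the 16 called genes, Gbp2 being the exception, the observed mean stood above that of EO771 alone plus the measured share of MLg RNA, but by more than 2-fold only in Usp18 (2.32 CPM against 0.951 CPM). With partner counts subtracted, an alternative chosen for this list after seeing the data, 7 of the 16 were still called in EO771 with MLg, and all 18 in each host. Ifit3, an antiviral effector, had 5.49 CPM in EO771 with MLg and 0.229 CPM in EO771 alone (adjusted p = 2.1e-08), where EO771 alone plus MLg RNA would give 4.21 CPM, and it was not called after the subtraction (adjusted p = 0.38). The smallest adjusted p of the list after it was that of Ddx58, which encodes the RNA sensor RIG-I, at 1.25 ± 0.18 (adjusted p = 0.00037). In the hosts, Ifi44 rose by 7.93 ± 0.47 in C2C12 with EO771 (adjusted p = 4.1e-05), and Rsad2, which encodes viperin, by 6.56 ± 0.43 in MLg with EO771 (adjusted p = 1.5e-06). The genes most like Ly6e over the 28 libraries were Helz2 (0.88), Oas1a (0.88) and Oas3 (0.87). Those most like Ly6a were Stom (0.95), Spry1 (0.95) and Pdpn (0.95), and Ly6c1 had a correlation of 0.92 with Ly6a and 0.15 with Ly6e. Of 27 listed genes that build and attach the GPI anchor, 25 were in the EO771 fit and 26 in each host fit. With edgeR 0 were called in the 3 comparisons. In C2C12 with EO771, where 2.63% of all genes tested rose and 0.0962% fell, a count of 0 is near that share. In EO771 with MLg 5.94% rose and 3.61% fell, and in MLg with EO771 9.96% and 4.90%. At an unadjusted p under 0.05 there were 3 in EO771 with MLg, 2 in C2C12 with EO771 and 5 in MLg with EO771, and DESeq2 called 2, 0 and 1; the medians were 0.01, 0.02 and 0.06.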

How the data were processed

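The 28 libraries were made from RNeasy-extracted RNA with a TruSeq kit for stranded mRNA, per the labels' protocols. The deposited values are raw counts per Ensembl gene, 1 table per library, made by the authors with no normalization in the files. Per the submitters' processing notes the tools included STAR 2.7.10a, Subread 2.0.1, featureCounts, fastp and DESeq2, in roles not stated; no source used here gives build, annotation or strand setting. All 55536 identifiers were found in GENCODE M21 (GRCm38), used for symbols and positions. For 2 libraries of EO771 with C2C12 (R5-1 and R5-2) the file names are interchanged relative to the samples they were deposited for; the deposited assignment was kept.

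CPM is counts per M of the library total. Tests used edgeR 4.0.16 (R 4.3.3), the quasi-likelihood F test with TMM normalization, filterByExpr with a count minimum of 10 and a total minimum of 15, and p-values adjusted by Benjamini-Hochberg over every gene of a fit; adjusted p under 0.05 is called, and the SE is the log2 change divided by the square root of F. The 12 EO771, 8 C2C12, 8 MLg, 16 host and 12 line-alone libraries had a fit each. Genes in EO771 kept with C2C12 were fitted but not tested, and Ly6g was tested in no comparison of EO771 libraries. The smallest chi-square per degree of freedom between 2 replicates was 13.4, so none was counted as a repeat. DESeq2 1.42.0 was an alternative. Tests were tried on simulated counts.

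Partner shares are the summed level of partner-specific genes (at least 20 CPM in the partner alone, at least 10 CPM in the co-cultured partner, at most 0.1 CPM in the line alone), or of 7 muscle markers, over their level in the co-cultured partner. Promoters are RefSeq's. The members and lists were chosen with earlier results of these data known. Named are all members, the 6 relatives of highest CPM at most, and the 3 genes most like Ly6g, Ly6a and Ly6e. Of other lists some called genes are named, which are not always those of largest change. The labels do not say that the R number pairs libraries, so no main fit blocks on it. In C2C12, same-numbered deviations correlated at 0.64 (R3) and 0.55 (R5), and a fit blocked on the R number is given as an alternative.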

Additional observations from a re-analysis of the deposited data

Results flagged for a closer look

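Each member with at least 20 counts in a group was checked for a library far from the other 3, 31 groups in all, where chance alone would give about 5% of them such a library. Ly6c1 in EO771 with C2C12 R3-1, at 77.4 CPM, lay far above the other 3 libraries of that group, with a gap of 0.87 of the whole range. That library also had the highest Ly6g, 11.4 CPM, Ly6a, 45.8 CPM, and Ly6e, 424 CPM, of its group, but not the highest Ly6c2, and its counts were all even. Ly6c2 in C2C12 with EO771 R3-1, at 14.3 CPM, lay far below the other 3, with a gap of 0.92 of the range. In C2C12 alone the 2 libraries labelled R3 had the lowest Ly6c2 as well, 12.9 and 10.5 CPM.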

How the results depend on the processing

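Of 129 recomputations of the leading results, 124 held. These results were the counts of called members, held within 1.5 times, and the untested Ly6g difference of EO771 with C2C12 over EO771 alone. That Ly6g difference made up 17 of the 129, all held within 1 SD. Other single values kept sign and call (untested ones moved by less than 1 SD) in 624 of 660. In EO771 with MLg over EO771 alone, 3 members were called under every alternative but the subtraction of C2C12 counts at the muscle share, with 1; that step alters the other EO771 libraries of the shared fit. In C2C12 with EO771 over C2C12 alone, 1 was called in the main analysis, 2 with DESeq2, 2 with the R number as a replicate block and 3 in 1 fit of all 28 libraries; leaving out 1 library at a time gave 1 to 2, and the cause was not tested. Ly6a was gained in each of these 3, at 1.13 with the block (adjusted p = 0.014). The 28-library fit also called Ly6g, which is not in the C2C12 fit. There the EO771 libraries let Ly6g past the filter, so that call is not used as support. The R numbers do not pair the libraries by the labels: same-numbered deviations correlated at 0.64 and 0.55 in C2C12, but between -0.15 and 0.16 elsewhere. Reversed values were those of Ly6a under subtraction at the muscle share, -1.24 over EO771 alone and -2.71 over EO771 with MLg, and of Ly6c1 in the difference between host responses, near 0, which ran from -0.0721 to 0.69 as single libraries were left out (-0.0227 and -0.0447 without 2 of the others). Halving even counts or leaving those libraries out changed no call in the EO771, MLg and host fits. In the EO771 fit they belong to EO771 with C2C12, which was not tested, so they act there only through the shared fit. The C2C12 and line-alone fits hold none of these libraries. Depth limits Ly6d, Ly6k, and Ly6c2 and Ly6g in MLg.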
